A study of Mus musculus with 3 samples.

Results

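The genes described here encode the actin and myosin machinery that bends the cranial neural folds. They were picked by gene symbol for their known roles, and all 10 were found among the 24062 gene symbols counted in the mouse rostrum, the anterior part of the head. In the order of their roles, they are *Shroom3*, *Enah* and *Vasp*, *Vcl* and *Marcks*, *Myh9* and *Myh10*, *Cfl1* and *Pfn1*, and *Arhgap35*.

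RNA-Seq compared embryos of 2 genotypes at embryonic day 9, with 18 to 22 somites. The *tuft* embryos were homozygous for *tuft*, a spontaneous nonsense mutation of *Tet1*, which encodes an enzyme that oxidizes methylated cytosine, and were chosen because they had a neural tube defect. The wild-type (WT) embryos came from 3H1 Balb, the strain in which *tuft* arose and the strain given for both genotypes. RNA of 3 rostrums was pooled for each library and 1 count column per genotype was used, so no value has a replicate error and no test between genotypes can be made. The sample records list 2 *tuft* samples beside 1 WT sample, and the single *tuft* column of counts could not be tied to either of them. Since only embryos with a defect were pooled, the genotype and the open neural tube cannot be told apart.

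To close the head, the flat neural plate forms hinges where neuroepithelial cells narrow their apical surface. Nonmuscle myosin II pulls on a belt of actin filaments beneath the apical junctions, SHROOM3 brings ROCK kinases to that belt, and other proteins lengthen, shorten or anchor the filaments. Mouse mutants of several of these genes, alone or in pairs, fail to close the cranial neural tube.

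The counts on genes summed to 6433067 in *tuft* and 14251942 in WT, and 11795 and 16914 genes had at least 1 count. A count of 0 allows up to 3 counts, or a level of 0.466 in *tuft* and 0.21 in WT when each library is scaled to 1000000 counts (CPM). Levels below are CPM after TMM scaling, a trimmed mean of log ratios between the libraries, except where library totals are named. Fold changes are *tuft* over WT with a 95% Clopper-Pearson interval. The interval covers counting error only, because reads were not tagged as single molecules and a second library was not analyzed. *Tet1* itself had 32 counts in *tuft* and 435 in WT, a fold change of 0.214 (0.145 to 0.307). Scaling by library totals alone would lower each log2 fold change by 0.39.

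The 10 genes differed unevenly. *Pfn1* and *Marcks* were about 3 times as high in the *tuft* library as in WT, *Myh10* was 5.14-fold lower and *Arhgap35* 2.74-fold lower. The other 6 genes differed by less than 2-fold. A gene was called when it differed by at least 2-fold with its counting interval on one side of 1, among the 13979 genes whose counts summed to at least 10 over both libraries. By this rule 2 of the 10 were called higher and 2 lower, with a median log2 fold change of -0.15 over the 10. The background was large: 21.2% of all tested genes were called higher and 40.0% lower, with a median of -0.55. Most of the lower calls came from scarce genes. Among the 3836 genes with a mean level in the range spanned by the members (58.1 to 2019 CPM), 29.1% were called higher and 16.2% lower, with a median of 0.28. The counts of 2 higher and 2 lower among 10 (20% each) are read beside both pairs of shares. With so few genes they are not a result about the group as a whole.

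**Figure D1:**
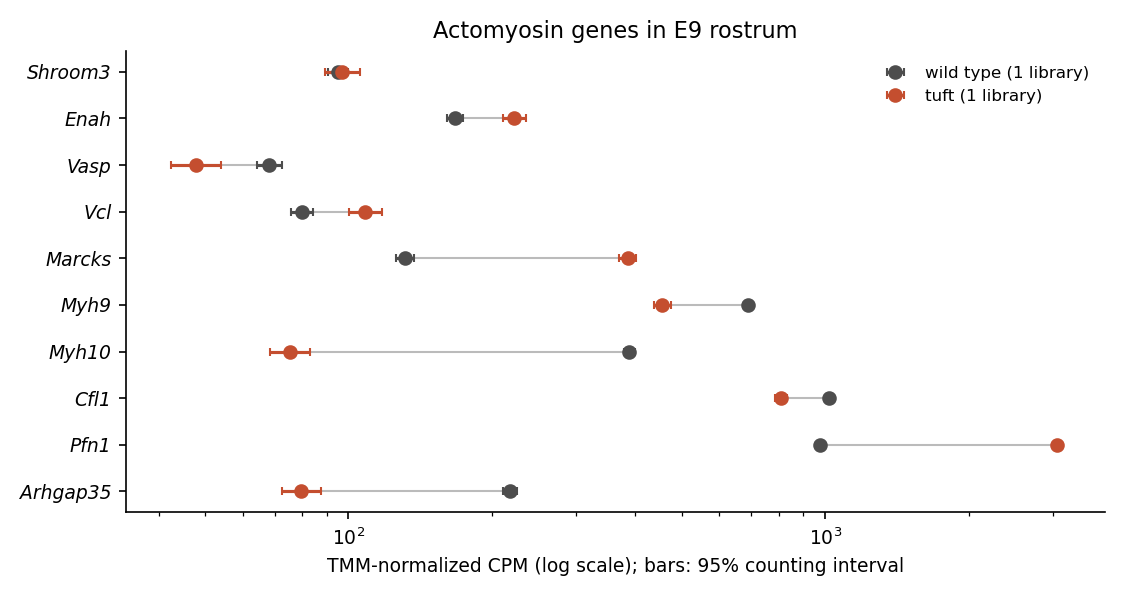
Level of each of the 10 genes in the *tuft* and WT libraries, as TMM-normalized CPM on a log axis. Points are single libraries and bars are 95% counting intervals. The points of *Shroom3* overlap, *Pfn1* and *Marcks* lie higher in *tuft*, and *Myh10* and *Arhgap35* lie lower.

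Per kilobase of transcript, *Pfn1* and *Cfl1* were the most abundant of the 10 in both libraries. Levels per kb are CPM by library totals, without TMM scaling, and serve to rank genes within a library. Their levels were 1295 and 1019 CPM per kb in WT, which placed them 20th and 22nd of 20313 genes with a transcript length, and 3105 and 613 in *tuft*, where they were 8th and 77th. In WT they were followed by *Myh9* (106), *Myh10* (57.2), *Enah* (44.8), *Marcks* (36.1), *Vasp* (35.4), *Arhgap35* (29.9), *Vcl* (17.5) and *Shroom3* (16.1). Of these neighbors, the counting intervals overlapped between *Marcks* and *Vasp* and between *Vcl* and *Shroom3*. In *tuft* the order was *Marcks* (80.2), *Myh9* (53.5), *Enah* (45.5), *Vasp* (18.9), *Vcl* (18.1), *Shroom3* (12.5), *Myh10* (8.46) and *Arhgap35* (8.28). There, *Vasp* and *Vcl* overlapped, as did *Myh10* and *Arhgap35*. *Myh10* thus went from the fourth place of the 10 in WT to the ninth in *tuft*, and *Marcks* from the sixth to the third. The *Cfl1* values are uncertain because much of its transcript occurs elsewhere in the genome, as given below.

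*Shroom3* encodes the apical scaffold that recruits ROCK kinases. It lies at chr5:92683435-92965759 of GRCm38.p6, the build of mm10 to which the reads were aligned. It had 545 counts in *tuft* and 1555 in WT, or 97.1 and 95.2 CPM, a fold change of 1.02 (0.924 to 1.13). The interval includes 1, and the sign turns with the scaling, from a log2 fold change of 0.03 to -0.37 with library totals. Its paralogs went different ways. *Shroom2* had 8 counts in *tuft* and 508 in WT, a fold change of 0.0459 (0.0197 to 0.0910), *Shroom4* had 162 and 294 (1.60, 1.32 to 1.95), and *Shroom1* had 0 and 18. Within a library, a share of the counts of a family does not depend on the scaling between libraries. *Shroom3* held 76.2% (72.9 to 79.3) of Shroom counts in *tuft* and 65.5% (63.5 to 67.4) in WT, while *Shroom2* held 1.12% and 21.4%. The kinases that SHROOM3 binds were both measured at low counts. *Rock1* had 67 counts in *tuft* and 234 in WT (0.834, 0.626 to 1.10) and *Rock2* had 133 and 607 (0.638, 0.525 to 0.771), neither of them past 2-fold.

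*Enah* and *Vasp* encode Ena/VASP proteins, which extend actin filaments at their growing ends with actin delivered by profilin. *Enah*, at chr1:181896384-182027556, had 1251 counts in *tuft* and 2732 in WT, or 223 and 167 CPM (1.33, 1.25 to 1.43). *Vasp*, at chr7:19256929-19271854, had 269 and 1116, or 47.9 and 68.3 CPM (0.702, 0.612 to 0.803). Neither reached 2-fold. The ratio of their counts, *Enah* over *Vasp*, was 4.65 (4.07 to 5.33) in *tuft* and 2.45 (2.28 to 2.63) in WT. The paralog *Evl* had 37 counts in *tuft* and 1636 in WT (0.0659, 0.0462 to 0.0912). *Evl* held 29.8% of Ena/VASP counts in WT and 2.38% in *tuft*, and *Enah* went from 49.8% (48.5 to 51.1) to 80.3% (78.3 to 82.3). The share of *Vasp* was 20.4% in WT and 17.3% in *tuft* by counts, but 26.6% and 28.2% per transcript length, so its direction turns with the measure.

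*Vcl* and *Marcks* link actin to junctions and to the plasma membrane. *Vcl* encodes vinculin, which binds catenin and talin complexes under tension. It lies at chr14:20929383-21033676 and had 609 counts in *tuft* and 1307 in WT, or 109 and 80.0 CPM (1.36, 1.23 to 1.49). *Vcl* overlaps *Ap3m1*, which had 78 and 411 counts, and without a stated strand setting, reads in the overlap cannot be given to either gene. *Marcks* encodes a substrate of protein kinase C that binds actin and acidic lipids. It lies at chr10:37133243-37138926. Its raw counts were nearly equal, 2160 in *tuft* and 2151 in WT, although the WT library was 2.22 times as deep, which gave 385 and 132 CPM (2.92, 2.75 to 3.11). It was called higher, and 17.5% of the genes in the members' range of levels had a higher fold change. The paralog *Marcksl1* had 5204 and 10135 counts (1.495, 1.446 to 1.546). The *Marcks* to *Marcksl1* count ratio was therefore 0.415 (0.395 to 0.437) in *tuft* and 0.212 (0.202 to 0.222) in WT, which does not rest on the scaling. *Marcksl1* shares 44.1% of its 31-base words with other places in the genome, against 0.724% for *Marcks*.

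**Figure D2:**
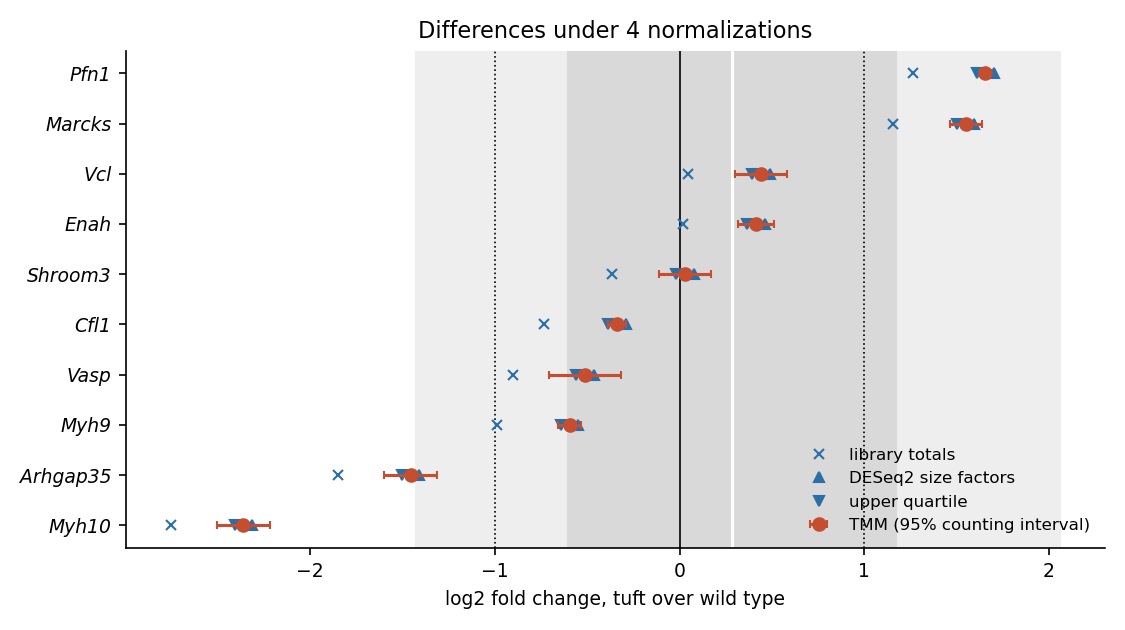
Log2 fold change of each gene, *tuft* over WT, under 4 ways of scaling the libraries. Red points carry 95% counting intervals, dotted lines mark 2-fold, dark and light grey bands hold the middle 50% and 80% of genes in the members' range of levels, and the white line is their median of 0.28. The bands were drawn from TMM-scaled values, and the TMM points of *Myh10* and *Arhgap35* lie below the light band. The interval of *Arhgap35* (-1.60 to -1.31) crosses the edge of that band at -1.43. Its point with DESeq2 size factors (-1.41) lies inside the band. Under all 4 scalings the same 4 genes are past 2-fold.

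*Myh9* and *Myh10* encode the heavy chains of nonmuscle myosin IIA and IIB, the motors of the contractile belt. *Myh9*, at chr15:77760585-77842175, had 2557 counts in *tuft* and 11252 in WT, or 456 and 689 CPM (0.662, 0.634 to 0.691). *Myh10*, at chr11:68691915-68816626, had 424 and 6347, or 75.6 and 388 CPM (0.195, 0.176 to 0.215). Both were lower in *tuft*, but only *Myh10* passed 2-fold. Of genes in the members' range of levels, 3.36% had a lower fold change than *Myh10* and 25.2% a lower one than *Myh9*. The count ratio of *Myh10* to *Myh9* was 0.166 (0.149 to 0.184) in *tuft* and 0.564 (0.547 to 0.582) in WT, a 3.40-fold difference that is independent of the scaling. *Myh10* held 14.03% (12.8 to 15.3) of the heavy chain counts in *tuft* and 35.8% (35.0 to 36.5) in WT, and *Myh9* held 84.6% and 63.4%. The third heavy chain, *Myh14*, was scarce, with 41 and 154 counts (0.775, 0.535 to 1.10).

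The *Myh10* promoter window is shown because *Myh10* had the lowest fold change of the 10 genes and because the mutated enzyme acts on cytosines of CpG dinucleotides. It comes from RefSeq sequence of GRCm38.p6, from 250 bases before to 50 bases after the start of transcription, at chr11:68691665-68691964 on the plus strand, with each CpG in capitals. It holds 18 CpG.
Myh10: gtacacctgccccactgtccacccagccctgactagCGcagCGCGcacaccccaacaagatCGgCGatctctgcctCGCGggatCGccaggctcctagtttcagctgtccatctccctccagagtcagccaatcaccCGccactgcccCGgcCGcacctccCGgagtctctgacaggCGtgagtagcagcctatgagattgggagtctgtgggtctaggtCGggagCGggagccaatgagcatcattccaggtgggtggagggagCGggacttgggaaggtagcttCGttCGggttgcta

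*Cfl1* and *Pfn1* turn filaments over from opposite sides: cofilin severs and disassembles them, and profilin returns actin monomers for growth. *Cfl1*, at chr19:5490455-5494031, had 4529 counts in *tuft* and 16672 in WT, or 807 and 1020 CPM (0.791, 0.765 to 0.817). *Pfn1*, at chr11:70651844-70656799, had 17198 and 15895, or 3065 and 973 CPM (3.15, 3.08 to 3.22). *Pfn1* alone held most of the counts on the 10 genes in *tuft*, which summed to 29989, against 62598 in WT. In WT the pair had similar counts, with a *Pfn1* to *Cfl1* ratio of 0.953 (0.933 to 0.974), and in *tuft* the ratio was 3.80 (3.67 to 3.92), a 3.98-fold difference. This ratio is uncertain, since 58.4% of the 31-base words of *Cfl1* occur elsewhere in the genome, against 5.29% for *Pfn1*. *Pfn1* was called higher, and 15.3% of genes in the members' range of levels had a higher fold change.

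The paralogs of both genes differed as well. *Cfl2*, the cofilin typical of muscle, had 1247 counts in *tuft* and 711 in WT (5.11, 4.65 to 5.61). It held 18.2% (17.3 to 19.1) of cofilin and destrin counts in *tuft* and 3.55% (3.30 to 3.82) in WT, while the share of *Cfl1* was 66.1% (65.0 to 67.2) and 83.4% (82.8 to 83.9). *Dstn*, which encodes destrin, had 1075 and 2619 counts, with a fold change of 1.20 (1.11 to 1.28) that falls below 1 with library totals. *Pfn2*, the profilin typical of neurons, had 27 and 861 counts (0.0913, 0.0598 to 0.134), and its share of the profilin pair was 0.157% in *tuft* and 5.14% in WT. *Cfl1* counts are uncertain because 58.4% of its 31-base words occur elsewhere in the genome, and reads that did not align uniquely were not counted on genes. For *Dstn* that share was 28.9%, for *Pfn1* it was 5.29%, and for *Cfl2* and *Pfn2* it was 0. Alignments that were not unique made up 59.2% of entries in *tuft* and 51.4% in WT, and their part in the *Cfl1* value was not tested. *Pfn1* overlaps *Eno3*, which had 586 and 1239 counts.

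The *Pfn1* window, shown because *Pfn1* had the highest fold change of the 10, lies at chr11:70654601-70654900 on the minus strand and holds 14 CpG, again in capitals.
Pfn1: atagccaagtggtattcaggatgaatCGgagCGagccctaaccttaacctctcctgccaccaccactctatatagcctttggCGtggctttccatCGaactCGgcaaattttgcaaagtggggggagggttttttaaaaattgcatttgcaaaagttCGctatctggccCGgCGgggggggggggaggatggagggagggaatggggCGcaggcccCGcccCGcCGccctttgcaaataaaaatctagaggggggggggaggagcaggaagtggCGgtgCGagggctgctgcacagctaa

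*Arhgap35* encodes p190A RhoGAP, which switches RhoA off and so restrains myosin. It lies at chr7:16494473-16614993 and had 447 counts in *tuft* and 3571 in WT, or 79.7 and 219 CPM (0.365, 0.330 to 0.402). It was called lower, and 9.57% of genes in the members' range of levels had a lower fold change. *Arhgap5*, which encodes p190B, had 47 and 381 counts (0.359, 0.259 to 0.487). The split within this family was alike in both libraries: *Arhgap35* held 90.5% (87.5 to 92.9) of the pair's counts in *tuft* and 90.4% (89.4 to 91.3) in WT. *Rhoa*, the GTPase on which both act, had 10075 and 3317 counts (8.845, 8.503 to 9.201). The ratio of *Rhoa* to *Arhgap35* counts was 22.5 (20.5 to 24.8) in *tuft* and 0.929 (0.886 to 0.974) in WT, a 24.3-fold difference. This ratio is uncertain, since 61.1% of the 31-base words of *Rhoa* occur elsewhere in the genome, against 1.59% for *Arhgap35*.

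The *Arhgap35* window, at chr7:16614944-16615243 on the minus strand, is shown for contrast with those of *Myh10* and *Pfn1*, because it is far denser in CpG, with 45 in capitals.
Arhgap35: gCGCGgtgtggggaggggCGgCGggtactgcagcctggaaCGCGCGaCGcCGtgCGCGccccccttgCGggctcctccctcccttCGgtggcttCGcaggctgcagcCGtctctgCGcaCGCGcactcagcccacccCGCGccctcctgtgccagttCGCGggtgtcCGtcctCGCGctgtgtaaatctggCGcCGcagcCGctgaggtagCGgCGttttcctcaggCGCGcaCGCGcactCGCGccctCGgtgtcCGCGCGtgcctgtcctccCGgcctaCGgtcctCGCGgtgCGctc

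Promoter windows were found for 9 of the 10 genes, 10 windows in all because *Shroom3* has a pair, and none was given for *Marcks*. The windows of *Shroom3*, *Enah* and *Pfn1* lie inside the gene spans given above and not at their outer start. CpG counts were 12 and 37 for *Shroom3*, 49 for *Enah*, 13 for *Vasp*, 30 for *Vcl*, 19 for *Myh9* and 22 for *Cfl1*. All 10 windows exceeded the median of 7 over 32851 windows, but the median over the windows of tested genes was 20, and 5 of the 10 exceeded that. The called genes lay on both sides of it, with 45 CpG for *Arhgap35*, 18 for *Myh10* and 14 for *Pfn1*. The GC box, GGGCGG on either strand, was found in 7 of the 10 windows and in 62.0% of the windows of tested genes (35.7% of all windows). TATAAA was found for *Myh9* only, and in 7.08% of the windows of tested genes (13.6% of all windows). The CArG box, bound by serum response factor at many actin cytoskeleton genes, was found for *Vcl* only, 227 bases before the start, and in 1.27% of the windows of tested genes (1.63% of all windows). It does not overlap a GC box in the *Vcl* window, at chr14:20929148-20929447 on the plus strand, where it stands in capitals. Such matches describe the letters of the window and not binding.
Vcl: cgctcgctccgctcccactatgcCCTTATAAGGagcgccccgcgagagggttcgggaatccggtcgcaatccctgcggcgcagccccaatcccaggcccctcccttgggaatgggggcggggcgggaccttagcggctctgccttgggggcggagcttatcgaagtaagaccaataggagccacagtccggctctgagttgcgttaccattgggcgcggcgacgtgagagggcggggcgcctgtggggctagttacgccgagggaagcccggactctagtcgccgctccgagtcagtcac

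**Figure D3:**
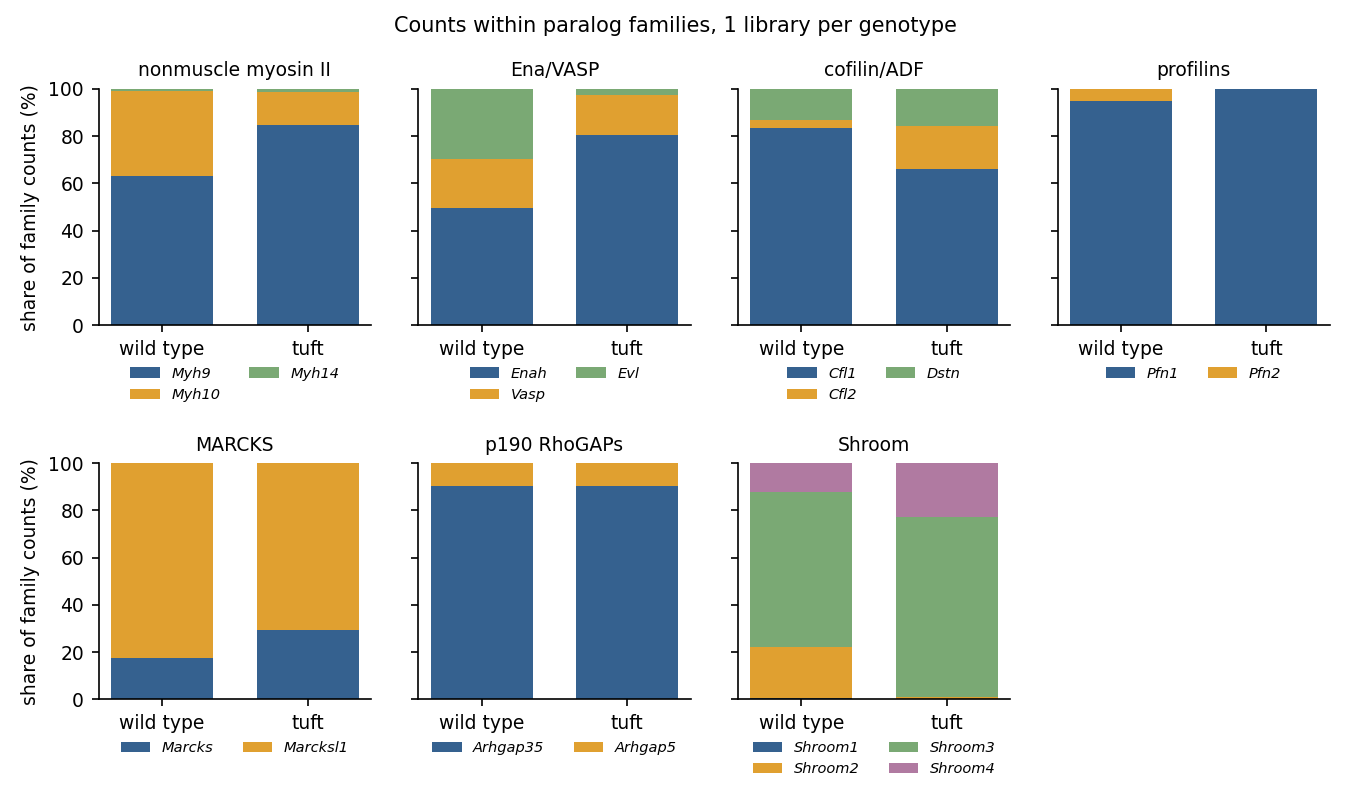
Share of the counts of each paralog family held by each gene, in percent, with 1 bar per library. *Myh10*, *Evl*, *Pfn2* and *Shroom2* take smaller shares in *tuft* than in WT, *Cfl2* and *Enah* larger ones, and the p190 pair divides alike.

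The wider pathway was described with 103 other genes in 9 lists. Of the 102 that could be tested, 15 were called higher, 36 lower and 51 not called, with a median log2 fold change of -0.35. With library totals the split was 11 higher and 46 lower, and over all tested genes it went from 2966 higher and 5587 lower to 2203 and 6766. As shares, 14.7% of the pathway genes were called higher and 35.3% lower, beside 21.2% and 40.0% of all tested genes. Of the 62 pathway genes in the members' range of levels, 13 were called higher (21.0%) and 12 lower (19.4%), with a median of 0.01, beside 29.1%, 16.2% and 0.28 for all genes in that range. With at least 100 counts in each library, 15 pathway genes were called higher and 14 lower. Of all 6822 genes past that minimum, 29.9% were called higher and 12.8% lower. The matching shares of the pathway genes were not computed. The counts of single lists below are therefore a description and are read against these shares. The 5 highest fold changes among genes with at least 100 counts in each library were those of *Myl6* (11.0), *Rhoa* (8.84), *Myl12b* (7.68), *Zyx* (5.57) and *Cfl2* (5.11). The lowest were those of *Arpc1a* (0.152), *Tjp1* (0.209), *Cdh1* (0.229) and *Cap1* (0.238).

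Genes of myosin regulation went in both directions. Of 9 genes for myosin light chains, their kinases and their phosphatase, 3 were called higher and 3 lower, with a median of 0.47. *Myl6*, the essential light chain, had 4166 counts in *tuft* and 1098 in WT, and *Myl12b*, a regulatory light chain, had 3553 and 1348. These light chains share 89.9% and 41.9% of their 31-base words with other places in the genome, so their values are uncertain. Among 6 tyrosine kinases that act upstream of p190RhoGAP, 1 was called higher and 1 lower (median 0.03).

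Genes that build and arrange filaments made up the next lists. The list of formins, the Arp2/3 complex and its activators (21 genes) held 3 higher and 7 lower calls, with a median of -0.53. *Arpc1a*, a subunit of the Arp2/3 complex that nucleates branched filaments, had 133 counts in *tuft* and 2555 in WT. Of 14 capping and crosslinking genes, 1 was called higher and 7 lower (median -1.002). Of 7 genes for cytoplasmic actins and monomer binding, none was called higher and 3 were called lower (median -0.12), including *Cap1*, which helps to recycle actin from cofilin (354 and 4340 counts). *Actb*, the main cytoplasmic actin, had 18596 and 33264 counts (1.63, 1.60 to 1.66) and held 93.4% of the counts of the pair with *Actg1* in *tuft* and 88.8% in WT. *Actg1*, with 1321 and 4192 counts (0.918, 0.862 to 0.976), shares 97.6% of its 31-base words with other places in the genome. For *Actb* that share was 39.8%, so both values are uncertain. The kinases and phosphatases of cofilin (7 genes) held 1 higher and 3 lower calls, with a median of -0.75.

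Junction genes that anchor actin held 3 higher and 6 lower calls among 16 genes (18.8% and 37.5%), with a median of -0.63. The shares were 21.2% and 40.0% over all tested genes, and 29.1% and 16.2% over genes in the members' range of levels. The shares of this list within that range were not computed. *Zyx*, which encodes the adhesion protein zyxin, had 2286 counts in *tuft* and 1195 in WT. *Tjp1*, which encodes the tight junction scaffold ZO-1, had 131 and 1826, and *Cdh1*, which encodes E-cadherin of surface ectoderm, had 162 and 2057. The paralogs of the members held 1 higher and 5 lower calls among 10 tested genes, the lower ones (*Shroom1*, *Shroom2*, *Evl*, *Pfn2* and *Arhgap5*) all with few counts in *tuft*, and had a median of -0.92, or -0.71 when *Shroom1* is set at its floor of 3 counts.

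**Figure D4:**
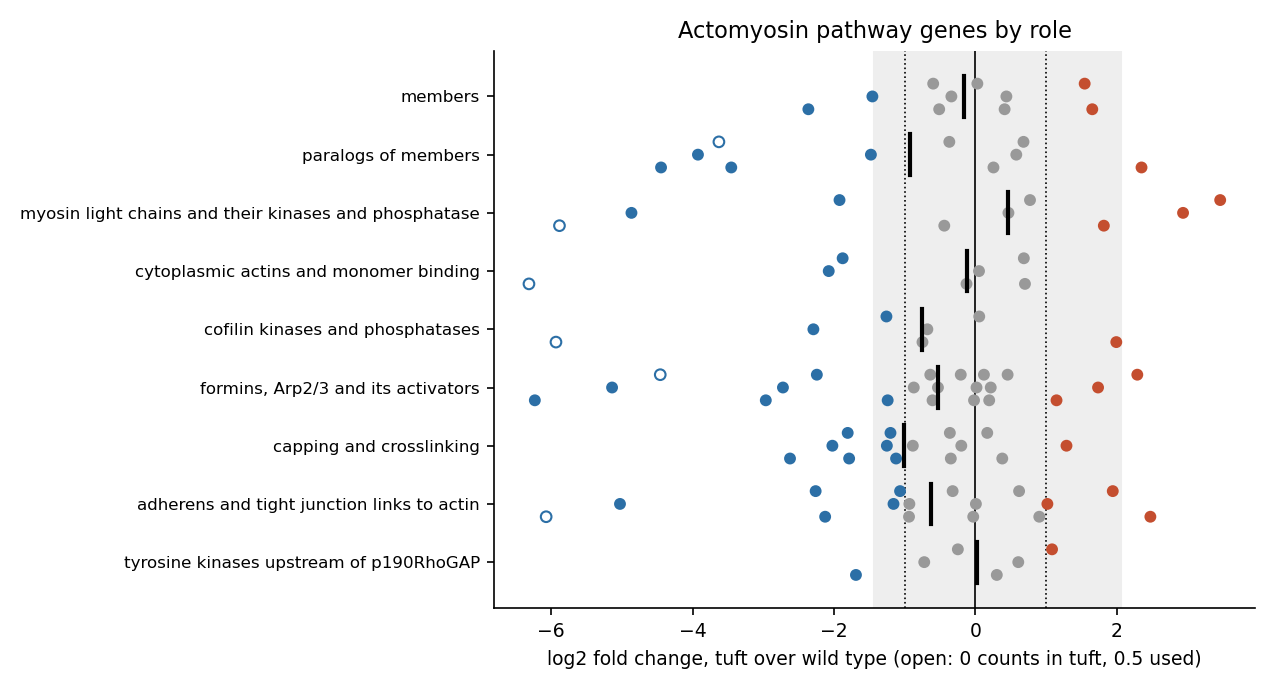
Log2 fold change, *tuft* over WT, of the 10 genes and of the other pathway genes in 8 of the 9 lists. Red points were called higher, blue points lower and grey points not called, open points had 0 counts in *tuft*, black bars are medians, and the grey band holds the middle 80% of genes in the members' range of levels. The medians run from -1.002 for capping and crosslinking to 0.47 for myosin light chains and their kinases and phosphatase.

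Transcript length and tissue makeup were set beside these values. The members include both short and long transcripts, from 861 bases for *Pfn1* to 8393 for *Arhgap35*. In the members' range of levels, the shortest of 5 bins by length, which holds *Pfn1* and *Cfl1*, had a median log2 fold change of 0.45. The longest, which holds *Shroom3*, *Vcl*, *Myh9*, *Myh10* and *Arhgap35*, had a median of 0.02, and Spearman's rank correlation between length and fold change was -0.09 over 3773 genes of these 2 libraries. *Marcks* was in the bin of lowest GC content, with a median of 0.66.

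In pooled tissue, fewer cells of a type and less RNA per cell cannot be told apart. Markers of forebrain neuroectoderm were present in both libraries, 7 of 8 above the floor of 3 counts in *tuft* and 8 of 8 in WT, with summed levels of 887 and 861 CPM by library totals. *Six3* was called higher and *Rax* lower, with 2 counts in *tuft*. The sums of most lists rest on a few genes that went different ways. Markers of primitive blood (5 of 5 in both) summed to 35525 CPM in *tuft* and 3192 in WT, with *Hbb-y* and *Hba-x* among those called higher and *Alas2* called lower. Those of head mesenchyme and neural crest (7 of 9 in *tuft*, with *Prrx2* and *Foxd3* at 0, and 9 of 9 in WT) summed to 512 and 311, with *Sox10* and *Twist1* called higher and *Pdgfra*, *Prrx2* and *Foxd3* lower. *Foxd3* had only 14 counts in WT, and it was 1.60-fold lower when set at the floor of 3 counts in *tuft*. Surface ectoderm markers (7 of 7 in both) summed to 783 and 615, with *Krt8* called higher and *Cdh1* lower. Endothelial markers (5 of 6 and 6 of 6, with *Pecam1* at 0 in *tuft*) summed to 94.5 and 265, with 1 called higher and 4 lower, and those of yolk sac and visceral endoderm (5 of 6 and 6 of 6, with *Apoa4* at 0 in *tuft*) to 215 and 1453, also with 1 higher and 4 lower. Smooth muscle markers (1 of 4 and 4 of 4) summed to 23.8 and 47.2, with *Tagln*, *Myh11* and *Cnn1* at 0 in *tuft*. No cardiac muscle marker passed the floor in *tuft*, where they summed to 0.311, against 6 of 6 and 7.23 in WT. Of these, 2 cardiac and 1 smooth muscle marker were called lower. *Tnnt2*, *Myh6* and *Nppa* had only 4, 7 and 8 counts in WT, and *Myh11* and *Cnn1* 6 and 9, too few to be tested. The lower depth of the *tuft* library limits such markers. The part of these differences in tissue in the values of the 10 genes was not tested.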

How the data were processed

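The values deposited by the authors are unnormalized read counts for each gene symbol, in 1 column per genotype. They trimmed single-end Ion Proton reads, aligned them to mm10 with TopHat2 2.0.14 and Bowtie2 2.2.5 per the submitters' processing notes, and counted them with htseq-count, whose strand setting is not given in the sources used here. Its 5 summary lines were left out of totals. Counts on genes were 27.4% of entries in *tuft* and 37.3% in WT. Libraries were scaled with TMM factors from edgeR 4.0.16 (R 4.3.3; factor of *tuft* over WT 0.761), with 0.5 for a count of 0 in fold changes. A single count column per genotype leaves edgeR's quasi-likelihood test without residual degrees of freedom, and no p-value is given. Intervals were computed in Python 3.11.15 with scipy 1.17.1 and tested on simulated data.

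The members and all gene lists were chosen with earlier results of these data known. Named genes are the 10 members, *Tet1*, the paralogs of members, and the 5 highest and 5 lowest pathway genes with at least 100 counts in each library. *Rock1*, *Rock2*, *Actb* and *Actg1* were named as further families whose shares were computed, and *Gapdh* as a reference gene. *Ap3m1*, *Eno3* and single marker genes were named after their values were seen. Of the 103 pathway genes, 4 were found under older symbols, and *Pfn4* had too few counts to be tested. Alternatives were library totals, DESeq2 1.42.0 size factors, upper quartile factors, other count minima, folds of 1.5 and 4, and the study's NOISeq-sim method, rebuilt with a threshold of 0.95. Those for the scaling of all tested genes were added after the data were seen. Positions and promoters came from RefSeq (GRCm38.p6). Transcript lengths and repeated 31-base words came from NCBIM37 with GENCODE models, taking the longest coding transcript per gene, in place of the RefSeq lengths that were planned. *Arhgap35* is *Grlf1* in that set. The fold change of 1 named pathway gene, the call of 1 marker gene and the counts of 1 list are not reported here.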

Additional observations from a re-analysis of the deposited data

How the results depend on the processing

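No paired analysis was possible because the files used hold a single count column per genotype, and for the same reason no replicate could be left out. No direction of a called gene turned under the alternatives run. With library totals the log2 fold changes were -0.37 for *Shroom3*, 0.021 for *Enah*, -0.91 for *Vasp*, 0.046 for *Vcl*, 1.15 for *Marcks*, -0.99 for *Myh9*, -2.76 for *Myh10*, -0.73 for *Cfl1*, 1.26 for *Pfn1* and -1.85 for *Arhgap35*. With upper quartile factors those of *Cfl1* and *Pfn1* were -0.39 and 1.61, and with DESeq2 size factors that of *Pfn1* was 1.70. These moves follow from the scaling, which shifts all genes alike. At 4-fold, 0 members were called higher and 1 lower (*Myh10*). NOISeq-sim called 1 higher (*Pfn1*) and 1 lower (*Myh10*), with *Marcks* at 0.949 and *Arhgap35* at 0.945 just under its threshold of 0.95. At 1.5-fold, *Myh9* was also called lower. These counts of members are read beside the counts over all tested genes given below, and are not a result about the group. Of the 102 pathway genes tested, 26 were called higher at 1.5-fold and 7 at 4-fold. Lower calls among them were 22 at 4-fold, 18 by NOISeq-sim and 14 with at least 100 counts in each library. Of all 13979 genes tested, 3942 were called higher at 1.5-fold, 1286 at 4-fold and 1231 by NOISeq-sim. Called lower were 6453 at 1.5-fold, 4130 at 4-fold and 1397 by NOISeq-sim. With at least 100 counts in each library, a minimum that removes genes scarce in *tuft*, 872 of 6822 genes (12.8%) were called lower. Per transcript length, family shares in *tuft* and WT were 79.5% and 67.8% for *Shroom3*, 67.9% and 33.8% for *Enah*, 28.2% and 26.6% for *Vasp*, 13.7% and 7.53% for *Marcks*, 80.0% and 90.01% for *Cfl1*, 99.9% and 97.6% for *Pfn1*, and 85.5% and 85.3% for *Arhgap35*, with 64.4% for *Myh9* and 34.6% for *Myh10* in WT. Only *Vasp* changed its direction between the libraries. The depth of *tuft* limits scarce paralogs such as *Shroom1*, and the spread between embryos could not be measured.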

Other observations

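*Gapdh*, often used as a reference gene, had 86 counts in *tuft* and 499 in WT, a fold change of 0.502 (0.394 to 0.632), and 85.8% of its 31-base words occur elsewhere in the genome. Together the 10 actomyosin genes held 0.466% of all counts on genes in *tuft* and 0.439% in WT.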
